A study of Mus musculus with 5 samples.

Results

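The 14-3-3 proteins are a family of small acidic adaptor proteins, here represented by the 6 mouse genes Ywhab, Ywhae, Ywhag, Ywhah, Ywhaq and Ywhaz, which encode the isoforms beta, epsilon, gamma, eta, theta and zeta. Their members were taken as the features of the array value table that the platform annotation assigns to exactly 1 gene symbol of this list and that were measured on all 5 arrays. This gave 11 spots for 6 genes, out of 44290 features in the table, of which 32042 had 1 gene symbol, for 19087 genes. Ywhaq had 3 spots, Ywhab, Ywhae and Ywhaz had 2 each, and Ywhag and Ywhah had 1 each.

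14-3-3 proteins form dimers that bind partner proteins at phosphorylated serine or threonine residues, and binding can hold the partner in the cytoplasm, change its activity or shield the phosphate. They are among the abundant soluble proteins of brain. The Ywha gene names record their first known activity, the activation of tyrosine hydroxylase and tryptophan hydroxylase, the rate-limiting enzymes of catecholamine and serotonin synthesis. Partners with roles in neurons include Raf kinases, class IIa histone deacetylases, the CREB coactivators of the Crtc family and the microtubule protein tau.

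RNA of the nucleus accumbens, a part of the ventral striatum with dense dopamine input, from male C57BL6 mice given cocaine was set against that of mice given saline on 5 two-colour long-oligonucleotide arrays. All animals went through conditioned place preference, in which a drug is paired with a compartment of a cage. The treated mice received cocaine at 15 mg/kg on days 2, 3 and 4 and had a low preference score, and the controls received saline solution on the same days. An array paired 1 mouse of each treatment, and the cocaine RNA was in the dye Cy5 on 3 arrays (cocaine-in-Cy5 replicates 1 to 3) and in the dye Cy3 on 2 (cocaine-in-Cy3 replicates 1 and 2). Cocaine animals B4coc and B4biscoc have names that differ by a suffix, and whether they are 1 animal is not stated. Ages were not stated in the labels. The tissue is bulk, so fewer cells of a type and less RNA per cell cannot be told apart.

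Each deposited value is the log2 ratio of one channel to the other. The same treatment was taken as the numerator on all 5 arrays, which is the likely reading because the offset of dim spots has the opposite sign on the dye-swapped arrays (medians over all spots, most of them dim, of -0.69, -0.57 and -0.52 against 0.53 and 0.60). Bright spots did not split by dye in this way. Which treatment is the numerator is not stated, so ratios are given as lying to the numerator side (positive) or the denominator side (negative). Spot brightness was recovered from the exact fractions behind the ratios of 3 arrays, and spots with a log2 brightness over 7.5 count here as above background, which 3979 spots (12.4%) for 3471 genes (18.2%) passed. The ratio of bright spots differed by array, with medians over these 3979 spots of -1.57, -0.18 and 0.15 where cocaine was in Cy5 and of -0.68 and -0.15 where it was in Cy3, so each ratio is given as deposited and with the brightness trend of its array removed. The tissue carried its markers: 8 of 8 measured medium spiny neuron markers and 7 of 7 pan-neuronal markers had a spot above background, against 2 of 6 for astrocytes, 3 of 5 for oligodendrocytes, 1 of 5 for endothelium, 2 of 3 for blood, 0 of 4 for microglia, 0 of 3 for cortical glutamatergic neurons and 0 of 4 for the choroid plexus and ependyma. The part of these cell types in the ratios below was not tested. With so few arrays, precision is limited by their number.

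The letters around the transcription start were examined because cocaine acts through dopamine receptors and cyclic AMP, whose nuclear factor CREB binds the cyclic AMP response element (CRE, TGACGTCA). The RefSeq promoter table (GRCm38.p6) matched 4 of the 6 genes, Ywhae, Ywhag, Ywhah and Ywhaq, and the 250 bases before the start were searched on both strands. Ywhah, on chromosome 5 at 33018816 to 33027966, holds a full CRE starting 96 bases before the start, and 508 of 32851 promoters (1.55%) hold one. Ywhag, on chromosome 5 at 135908379 to 135934641, holds the half-site TGACG on the opposite strand, starting 16 bases before the start. The half-site, which is part of the full CRE, occurs in 17.8% of all promoters and in 2 of these 4. The sequences below are those of Ywhah (chr5:33018566-33018815, plus strand) and Ywhag (chr5:135934642-135934891, minus strand), 5′ to 3′, with the CRE or half-site in capitals.
Ywhah: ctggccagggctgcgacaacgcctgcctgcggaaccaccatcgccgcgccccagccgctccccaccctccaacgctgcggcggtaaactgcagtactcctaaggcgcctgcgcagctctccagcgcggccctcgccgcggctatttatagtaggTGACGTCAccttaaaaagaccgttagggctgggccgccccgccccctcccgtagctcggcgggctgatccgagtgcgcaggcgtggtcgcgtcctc
Ywhag: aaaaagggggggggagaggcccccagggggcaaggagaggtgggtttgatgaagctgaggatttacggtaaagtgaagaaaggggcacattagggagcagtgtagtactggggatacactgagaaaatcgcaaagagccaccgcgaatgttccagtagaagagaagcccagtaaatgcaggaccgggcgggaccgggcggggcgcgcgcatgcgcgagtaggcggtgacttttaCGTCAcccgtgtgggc

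The GC box GGGCGG occurred in 3 of the 4 promoters (Ywhae, Ywhag and Ywhah) against 32.7% of all, and the CCAAT box CCAAT in that of Ywhaq against 33.8%. The letters of the TATA box, TATAAA, occurred in the promoter of Ywhah against 12.4%, on the opposite strand and farther from the start than the CRE. The promoters of Ywhae, Ywhah, Ywhaq and Ywhag were 73.2%, 68.8%, 65.2% and 58.4% G and C, where the median of all promoters was 52.4%. These matches describe letters and not binding. The genes are spread over the genome: Ywhab lies on chromosome 2 (163995197 to 164018588), Ywhae on chromosome 11 (75732887 to 75765841), Ywhaq on chromosome 12 (21390329 to 21417436) and Ywhaz on chromosome 15 (36770261 to 36802984), and only Ywhag and Ywhah share a chromosome.

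The first question was how strongly the family was represented in accumbens RNA. Of the 11 spots 5 were above background, for 5 of the 6 genes, and 4 more lay between background and that level. Brightness is a property of the probe as well as of the transcript, so no gene is ranked against another by it. Ywhah, the eta isoform, had the brightest spot, at a log2 brightness of 12.2 ± 0.3 (SD of the recovery). The brightest spots of Ywhaq, Ywhag, Ywhaz and Ywhab stood at 9.4, 8.7, 8.7 and 8.3. Both spots of Ywhae, the epsilon isoform, fell just short, at 7.497 and 7.27, and were over the alternative level of 7. The other spots of Ywhaq and Ywhaz stood at 7.4 and 6.8. The second spot of Ywhab (6.1) and the third spot of Ywhaq (6.2) were at the level of background spots, and the latter is assigned to a cDNA clone rather than to the reference transcript of the gene. Sfn, which encodes the sigma isoform known from epithelia, had 3 spots at 6.9, 6.1 and 6.1, none of them above background.

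No 14-3-3 gene changed between cocaine-treated and saline-treated mice past the threshold. With limma, 0 of the 11 spots had an adjusted p under 0.05, as had 0 of all 43790 tested features (0%), and the members' adjusted p ran from 0.731 to 0.976. At an unadjusted p under 0.05 there were 0 of 11 member spots, where 998 features (2.28%) passed. As deposited, 9 of the 11 spots and 6 of 6 genes lay on the denominator side, as did 59.4% of all features, 68.8% of all genes and 3463 of the 3471 genes with a spot above background. After removal of the brightness trend the same fit put 5 of 11 spots and 2 of 6 genes on the denominator side. There lay 50.1% of all features and 54.0% of all genes. None was called, and the smallest adjusted p was 0.674 (limma). Under the other reading, Cy5 over Cy3 on every array, 3 of 11 spots were called where 78.4% of features were, and with the cocaine-in-Cy5 arrays alone 2 of 11 where 76.8% were.

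Ywhah, whose eta isoform is expressed mainly in neurons, carried the ratio farthest from 0 of the 11 spots as deposited, though not with the trend removed, where the bright Ywhab spot was farther from it. Its single spot read -2.55, -0.22 and 0.079 with cocaine in Cy5 and -1.33 and -0.43 with cocaine in Cy3. It was thus on the denominator side of 4 of 5 arrays, with cocaine-in-Cy5 replicate 1 lowest and the 2 dye orientations overlapping. The treatment ratio was -0.89 ± 0.46 on the log2 scale (SE, n = 5 arrays; limma, adjusted p 0.731). Gene spots of like brightness (46 spots within 0.25) had medians of -1.70, -0.0032 and 0.36 and of -1.26 and -0.54 on the same arrays. With the trend removed the spot read -0.93, -0.25 and -0.40 and then 0.026 and 0.11, so the 3 cocaine-in-Cy5 arrays lay below both cocaine-in-Cy3 arrays. That treatment ratio was -0.23 ± 0.10 (limma, adjusted p 0.674), with a 95% interval from -0.49 to 0.032. Without cocaine-in-Cy5 replicate 1 the deposited ratio was -0.48 ± 0.15 (limma, adjusted p 0.858) and the trend-removed one -0.13 ± 0.047 (limma, adjusted p 0.555).

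Ywhaq, encoding theta, had a pair of spots that tracked each other closely and another that did not. The brightest read -2.30, 0.031 and 0.31 with cocaine in Cy5 and -0.62 and -0.20 with cocaine in Cy3. The second read -1.93, -0.12 and 0.11 and then -0.023 and 0.17. In both, cocaine-in-Cy5 replicate 1 stood far below the other 4 arrays, by 1.68 and 1.81. With the trend removed they differed from each other by -0.074 to 0.0024 on the 5 arrays, a mean of -0.041 ± 0.028 (SD), and each still had that array lowest, at -0.72 and -0.68, with the other 4 between 0.044 and 0.24. Their trend-removed treatment ratios were -0.020 ± 0.14 and 0.021 ± 0.14 (SE; limma, adjusted p 0.975 and 0.973), and as deposited -0.53 ± 0.44 and -0.29 ± 0.34 (limma, adjusted p 0.731 and 0.787). The spot of the cDNA clone read -0.76, -0.83 and -0.76 with cocaine in Cy5 and 0.72 and 0.87 with cocaine in Cy3. Those values split by dye with no overlap, lay within the range of background spots on all 5 arrays and gave a treatment ratio of 0.0060 ± 0.040 (limma, adjusted p 0.968).

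Ywhab, whose beta isoform is a classical partner of Raf kinases, had a bright spot that read -2.12, 0.17 and -0.080 with cocaine in Cy5 and 0.28 and 0.41 with cocaine in Cy3. Only cocaine-in-Cy5 replicate 1 stood apart, 2.04 below the next array, and the other 4 lay between -0.080 and 0.41. The treatment ratio was -0.17 ± 0.39 as deposited (limma, adjusted p 0.894), 0.27 ± 0.15 with the trend removed (limma, adjusted p 0.685) and 0.20 ± 0.064 as deposited without that array (limma, adjusted p 0.858). The dim spot of Ywhab read -0.80, -0.40 and -0.25 and then 0.071 and 0.23, negative with cocaine in Cy5 and positive with cocaine in Cy3. Although dim, it did not stay within the range of background spots on all 5 arrays. Its treatment ratio was -0.17 ± 0.095 (limma, adjusted p 0.731).

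Ywhae encodes epsilon, the isoform that binds the dynein regulator Ndel1 in migrating neurons, and its spots went apart on the dye-swapped arrays. The brighter one read -1.27, 0.014 and 0.20 with cocaine in Cy5 and -1.10 and -0.38 with cocaine in Cy3. The other read -1.77, 0.19 and -0.038 and then 0.17 and 0.16. On cocaine-in-Cy3 replicate 1 they thus differed by -1.27, although their recovered brightness differed by less than its error. As deposited their treatment ratios were -0.54 ± 0.27 and -0.19 ± 0.33 (limma, adjusted p 0.731 and 0.858). With the trend removed they took opposite sides, at -0.22 ± 0.070 and 0.097 ± 0.16 (limma, adjusted p 0.674 and 0.874).

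Ywhaz, encoding zeta, showed the same lack of accord between its spots. The brighter read -1.48, 0.12 and -0.081 with cocaine in Cy5 and -0.83 and -0.25 with cocaine in Cy3, and the dimmer read -1.04, -0.32 and -0.22 and then 0.57 and 0.56. The brighter had its highest value on a cocaine-in-Cy5 array, while the dimmer was positive on the cocaine-in-Cy3 arrays alone. As deposited their treatment ratios were -0.51 ± 0.28 and 0.016 ± 0.14 (limma, adjusted p 0.731 and 0.976), and with the trend removed -0.049 ± 0.081 and 0.22 ± 0.047 (limma, adjusted p 0.878 and 0.674). Ywhag, whose gamma isoform is enriched in neurons, had 1 spot that read -1.39, -0.27 and -0.28 with cocaine in Cy5 and -0.61 and 0.42 with cocaine in Cy3. It was on the denominator side of 4 of 5 arrays, with overlap between the orientations. Gene spots of like brightness (498 spots within 0.25) had medians of -1.67, -0.16 and 0.21 and of -0.79 and -0.22 on the same arrays. The treatment ratio of the Ywhag spot was -0.37 ± 0.25 as deposited (limma, adjusted p 0.731) and 0.098 ± 0.11 with the trend removed (limma, adjusted p 0.816).

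**Figure D1:**
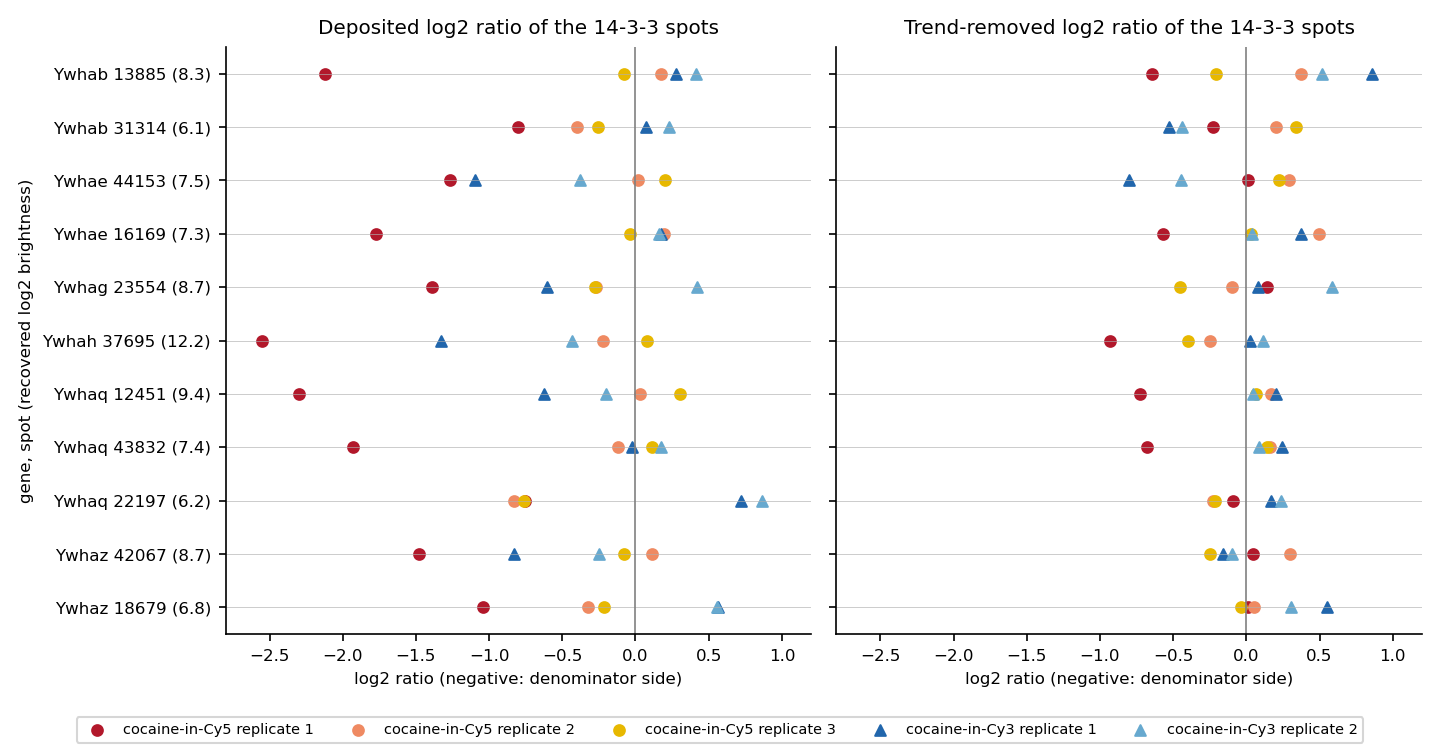
Log2 ratio (x axis) of each of the 11 spots of 14-3-3 genes (y axis, with the spot number and the recovered log2 brightness) on each array, as deposited (left) and with the brightness trend of the array removed (right). Circles are the 3 arrays with cocaine in Cy5 and triangles the 2 with cocaine in Cy3. In 10 of 11 spots cocaine-in-Cy5 replicate 1 is lowest on the left, and in 5 of 11 on the right.

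The low value on cocaine-in-Cy5 replicate 1 was shared with most bright spots. It was the lowest array for 10 of the 11 member spots, for 93.9% of the 3979 gene spots above background and for 55.4% of all features. After removal of the trend it was lowest for 5 of 11 member spots and 36.5% of the gene spots above background. The median SD over the 5 arrays of gene spots above background fell from 0.74 as deposited to 0.26 with the trend removed. The member spots had SDs from 0.41 to 1.07 as deposited and from 0.21 to 0.60 with the trend removed. The bright spot of Ywhab had the widest spread of the 11 after the trend was removed, from -0.64 to 0.86.

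**Figure D2:**
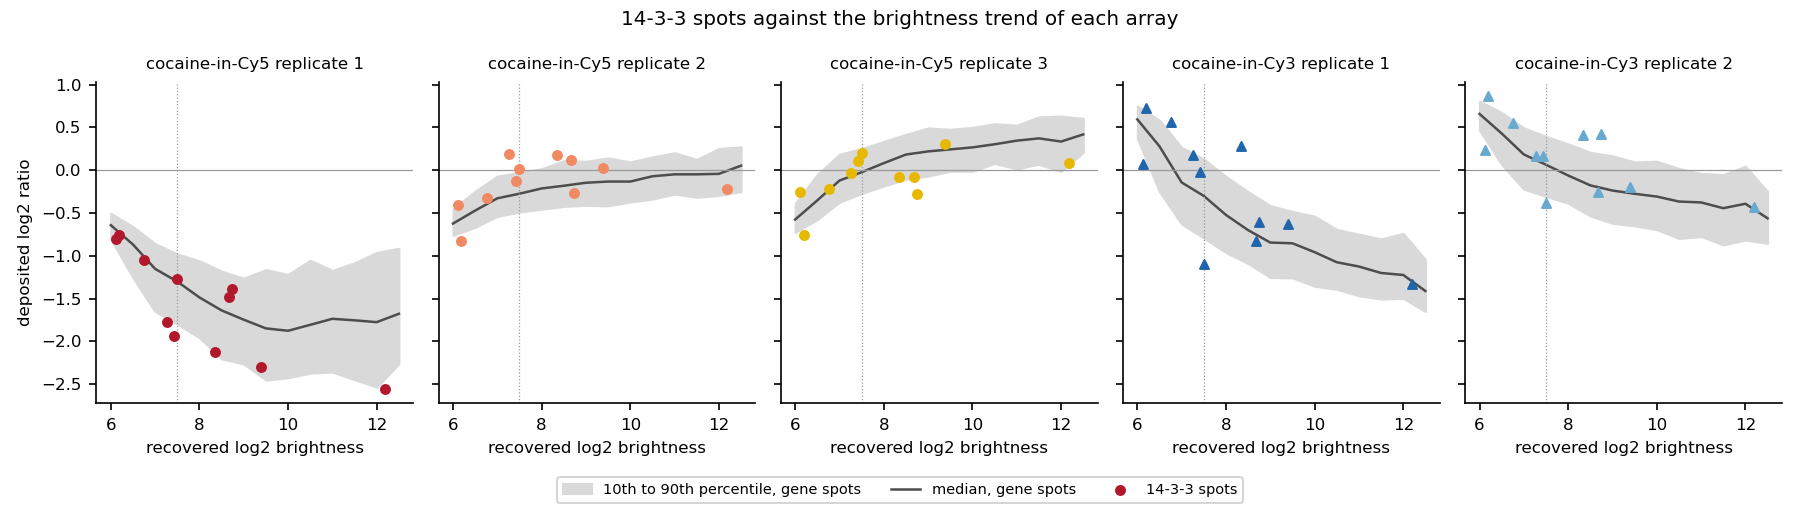
Deposited log2 ratio (y axis) against recovered log2 brightness (x axis) on each of the 5 arrays. The line and grey band are the median and the 10th to 90th percentile of gene spots in steps of 0.5, the dotted line marks the background level of 7.5, and points are the 11 spots of 14-3-3 genes. The trend runs downward on cocaine-in-Cy5 replicate 1 and on both cocaine-in-Cy3 arrays and upward on the other 2, and the members mostly follow it.

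The size of change that these arrays could have missed differed with the treatment of the trend. As deposited, 3 of the 11 spots had a 95% interval within 2-fold, and these were the dim spots of Ywhab, Ywhaq and Ywhaz. The widest interval, that of Ywhah, ran from -2.12 to 0.34. With the trend removed all 11 intervals stayed within 2-fold, the outermost bounds being -0.49 (Ywhah) and 0.64 (the bright spot of Ywhab). These intervals cover the spread between arrays and leave out the error of the trend itself. Only 5 of the 11 spots were above background, and the interval of a dimmer spot need not bound a change in its transcript. At an unadjusted p under 0.05, 2 of the 11 trend-removed spots passed, where 2989 features (6.83%) did so. They were the brighter spot of Ywhae on the denominator side (p 0.0211) and the dimmer spot of Ywhaz on the numerator side (p 0.0044), and in each case the other spot of the gene lay on the opposite side. With 1 array left out in turn, the trend-removed ratio ran from -0.31 to -0.14 for this Ywhae spot and from 0.16 to 0.28 for this Ywhaz spot. Both were smallest in size without cocaine-in-Cy3 replicate 1.

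**Figure D3:**
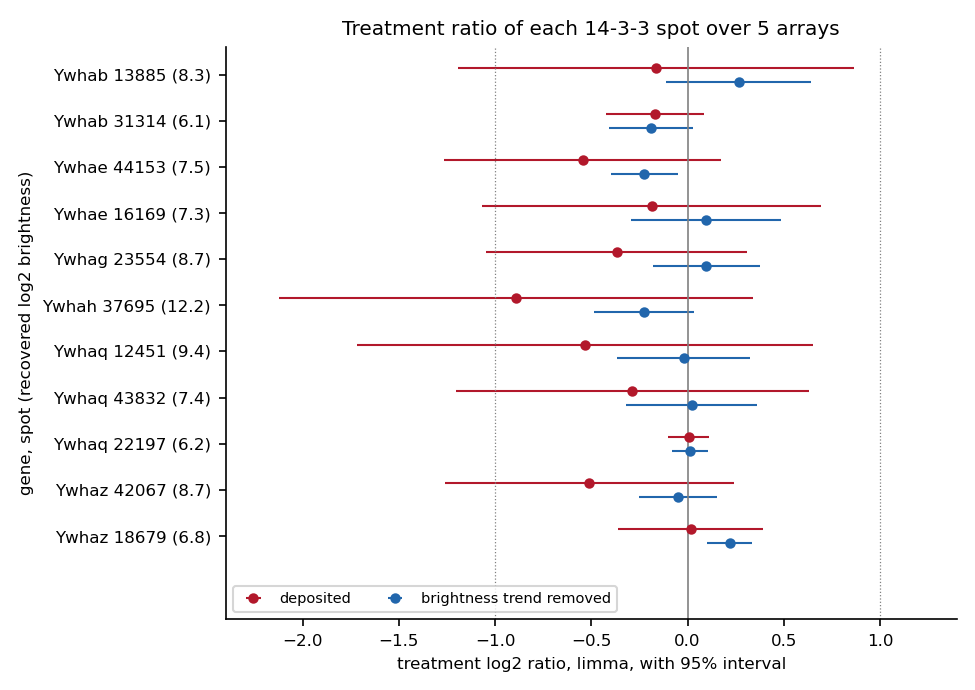
Treatment log2 ratio (x axis) of each of the 11 spots of 14-3-3 genes (y axis) from the limma fit to 5 arrays with a dye term, as deposited (red) and with the brightness trend removed (blue). Bars are 95% intervals and dotted lines mark 2-fold. Every deposited interval reaches across 0, and 2 trend-removed intervals, of the brighter Ywhae spot and the dimmer Ywhaz spot, do not.

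Gene values, means over the spots of a gene, pool bright spots with dim ones, and none was called either. As deposited they ran from -0.89 ± 0.46 for Ywhah and -0.37 ± 0.25 for Ywhag, through -0.37 ± 0.29 for Ywhae, -0.27 ± 0.26 for Ywhaq and -0.25 ± 0.21 for Ywhaz, to -0.17 ± 0.24 for Ywhab (SE; limma, adjusted p from 0.713 to 0.789 over 19087 genes). No gene passed the threshold (0% of 19087), and 209 genes (1.09%), none of them a member, had an unadjusted p under 0.05. Apart from Ywhah, neighbours in this order differed by less than 1 SE. After trend removal the order was Ywhah at -0.23 ± 0.10, Ywhae at -0.064 ± 0.097, Ywhaq at 0.0048 ± 0.087, Ywhab at 0.037 ± 0.11, Ywhaz at 0.085 ± 0.053 and Ywhag at 0.098 ± 0.11 (limma, adjusted p from 0.71 to 0.991). At an unadjusted p under 0.05 there were then 0 of the 6 genes, where 1267 genes (6.64%) passed. Sfn stood at -0.074 ± 0.12 as deposited and -0.0074 ± 0.065 with the trend removed (limma, adjusted p 0.813 and 0.98). With the brightest spot in place of the mean, as deposited, Ywhae stood at -0.54 ± 0.28, Ywhaq at -0.53 ± 0.45 and Ywhaz at -0.51 ± 0.29 (SE, limma, adjusted p 0.684 each). These lay beyond Ywhag at -0.37, so the order of the means depends on the dim spots. The trend-removed mean of Ywhab averages spots at 0.27 and -0.19.

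Comparing the isoforms within an array cancels an offset that all its spots share, but as deposited it leaves in the trend with brightness. Gene spots as bright as those of Ywhah, the brightest Ywhaq spot and the dim Ywhab spot had unlike medians. These were -1.26, -0.86 and 0.57 on cocaine-in-Cy3 replicate 1 and 0.36, 0.25 and -0.56 on cocaine-in-Cy5 replicate 3. Ywhah minus the mean of the other 5 genes was -1.09, -0.085 and 0.20 with cocaine in Cy5 and -1.13 and -0.65 with cocaine in Cy3, so it was lower on 4 of 5 arrays, by a mean difference of -0.55 ± 0.60 (SD, n = 5; 2-sided exact sign-flip test, p = 0.188, adjusted p = 0.5 over 6 genes). Trend-removed differences were -0.72, -0.41 and -0.32 with cocaine in Cy5 and -0.059 and -0.015 with cocaine in Cy3, on the same side of 5 of 5 arrays, with a mean of -0.30 ± 0.29 (exact p = 0.0625, adjusted p = 0.375). With 5 arrays 0.0625 is the smallest p that this test can give. The differences split by dye orientation with no overlap, and the test has no dye term, so its mean weights the 3 arrays with cocaine in Cy5 over the 2 with cocaine in Cy3. Over the spots above background alone, with the trend removed, Ywhah was below the other 4 genes on 5 of 5 arrays by -0.32 ± 0.21 (exact p = 0.0625, adjusted p = 0.312). For the other genes the smallest exact p in these 3 comparisons was 0.188, for Ywhab, as deposited and over the trend-removed spots above background. Ywhah has 1 spot, so this difference has no second probe behind it.

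The isoforms did not share 1 pattern over the arrays once the trend was removed. On cocaine-in-Cy5 replicate 1 the spots above background of Ywhah (-0.93), Ywhaq (-0.72) and Ywhab (-0.64) had their lowest value, whereas those of Ywhag and Ywhaz read 0.14 and 0.046 there and had their lowest value on cocaine-in-Cy5 replicate 3 (-0.45 and -0.25). The genes most like the mean of the 5 members above background, out of 3466 others, were Dhx15, an RNA helicase of splicing (r 0.999), Nnat, a small membrane proteolipid of neurons (0.996), Gdpd5, a glycerophosphodiesterase (0.996), the membrane protein Tmem132a (0.995) and Prkar1b, a regulatory subunit of protein kinase A (0.994). These are Pearson's r of trend-removed values over 5 arrays, given as a description.

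Other genes of the pathway were followed through 3 lists: proteins that 14-3-3 binds, kinases that write its binding sites or act on it, and phosphatases that can remove those phosphates. None of them passed the threshold with limma as deposited or with the trend removed, and at an unadjusted p under 0.05 there were 0 genes as deposited (1.09% of all genes) and 2 of 44 clients, 2 of 23 kinases and 1 of 9 phosphatases with the trend removed (6.64% of all genes). Of 49 listed clients 44 were measured and 11 were above background. As deposited 35 of the 44 lay on the denominator side (68.8% of all genes), with a median of -0.096 against -0.044 for all genes. With the trend removed 21 of 44 did (54.0% of all genes), with a median of 0.0072 against -0.0057. The 3 clients with the smallest deposited p were Wwtr1, the Hippo coactivator TAZ, at -0.13 ± 0.057, Ulk1, the autophagy kinase, at -0.51 ± 0.26, and Mlxipl, a glucose-responsive transcription factor, at -0.091 ± 0.049 (SE; limma, adjusted p 0.713 each). Of these only Ulk1 had a spot above background, and the brightest spots of Wwtr1 and Mlxipl were at 6.2. Among the brightest, Mapt, which encodes tau, stood at -0.61 ± 0.40, Hdac5, a class IIa histone deacetylase, at -0.60 ± 0.38 and Gabbr1, a GABA-B receptor subunit, at -0.24 ± 0.19 (limma, adjusted p 0.713 each). Their trend-removed ratios were -0.22 ± 0.16, -0.022 ± 0.072 and -0.016 ± 0.043. Of the 11 clients above background 9 lay on the denominator side with the trend removed, as did 2128 of 3471 such genes (61.3%). As deposited 11 of the 11 did, as did 3463 of the 3471.

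Of 25 listed kinases 23 were measured and 11 were above background. As deposited 20 of 23 lay on the denominator side (median -0.16), and with the trend removed 13 of 23 (median -0.0096). The shares of all genes were 68.8% and 54.0%. Of the 11 kinases above background 11 lay on that side as deposited and 6 with the trend removed. Of the 3471 genes with a spot above background 3463 and 2128 did. Those with the smallest deposited p were Sik3, a salt-inducible kinase, at -0.38 ± 0.15, Camk2a, the alpha subunit of calcium and calmodulin dependent kinase II, at -0.16 ± 0.071 and the JNK kinase Mapk10 at -0.26 ± 0.12 (limma, adjusted p 0.713 each). Sik3 read -1.14, -0.46 and -0.22 with cocaine in Cy5 and -0.26 and -0.030 with cocaine in Cy3, on the denominator side of 5 of 5 arrays. Camk2a was also on that side of 5 of 5 arrays, and Mapk10 of 4. With the trend removed Sik3 stood at -0.18 ± 0.039, Camk2a at 0.13 ± 0.12 and Mapk10 at -0.059 ± 0.039 (limma, adjusted p 0.71, 0.779 and 0.735). The bright Prkcz, Prkaca and Camk2b stood at -0.42 ± 0.24, -0.53 ± 0.27 and -0.23 ± 0.20 as deposited and at -0.038 ± 0.035, 0.027 ± 0.070 and 0.040 ± 0.057 with the trend removed.

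All 9 listed phosphatase genes were measured and 6 were above background. As deposited 8 of 9 lay on the denominator side (median -0.38), and with the trend removed 5 of 9 (median -0.033), against the same 68.8% and 54.0% of all genes. Of the 6 above background 6 and then 4 did, against 99.8% and 61.3% of genes with a spot above background. The smallest deposited p were those of Ppp1cc and Ppp1ca, catalytic subunits of protein phosphatase 1, at -0.42 ± 0.26 and -0.67 ± 0.45, and of Ppp3cb, a catalytic subunit of calcineurin, at -0.22 ± 0.15 (limma, adjusted p 0.713 each). Among the brightest, Ppp3ca stood at -0.47 ± 0.46, Ppp1cb at -0.67 ± 0.46 and Ppp2ca at -0.34 ± 0.33 as deposited, and at 0.18 ± 0.12, -0.073 ± 0.13 and 0.10 ± 0.079 with the trend removed. The 6 members' own medians were -0.32 and 0.021, and those of all 3471 genes with a spot above background -0.34 and -0.022.

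**Figure D4:**
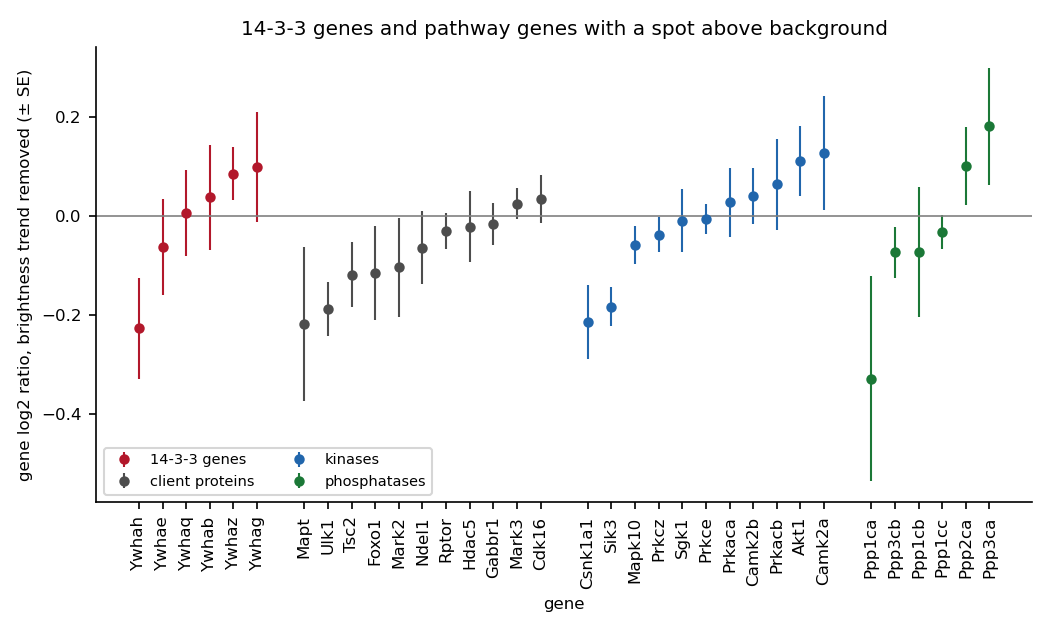
Gene log2 ratio with the brightness trend removed (y axis, points with bars of 1 SE, limma on 5 arrays) for the 6 genes of the 14-3-3 family and for the listed clients, kinases and phosphatases that had a spot above background (x axis, sorted within each list). All ratios lie between -0.33 (Ppp1ca) and 0.18 (Ppp3ca), and Ywhah, at -0.23, is the lowest of the family.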

How the data were processed

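Per the labels' protocols, accumbens RNA was extracted with a PicoPure kit, and 50 ng per sample went through linear amplification with a Cy5 or Cy3 label. Per the submitters' processing notes, images were read with Agilent Feature Extraction; its version and how it corrected or normalized signals were not stated. The authors deposited log2 ratios of one channel to the other, and array medians differ from 0. In 3 columns 99.96% of values were fractions of whole scanner counts or steps of 0.5 (relative tolerance 2e-14), which settles the log base there; the other 2 columns hold fewer digits and were taken to share it. The factor lost in each fraction was weighed over the 3 arrays (probability of 0.2 for a step of 0.5, a log2 spread of 0.25 from array to array, signals of at least 35 counts), which gave brightness with an error of up to 0.6 for members. Of the 3322 features between 6.5 and 7.5 in brightness, 5.15% had ratios of background spots on all 5 arrays, and of the 1546 between 7.5 and 8, 0%.

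Features at 0 on all arrays (500) were left out. The treatment was fitted per feature and per gene with limma 3.58.1 in R 4.3.3 (treatment mean plus dye orientation, Benjamini-Hochberg adjustment over all 43790 features or 19087 genes, threshold 0.05). The brightness trend was removed with loess (span 0.3). Scripts in Python 3.11.15 (NumPy 2.4.6, pandas 2.3.3) were tested on simulated data. Features were named through the platform annotation (32042 with 1 symbol, 47 with several, 12201 with none). The annotation's gene identifiers of the 6 genes matched the RefSeq table of GRCm38.p6. Every member spot was named, and from each pathway list the 3 genes with the smallest p and up to 3 of the brightest. Members and lists were chosen with earlier results of these data known. Replicates are separate arrays, and p-values measure the spread between them. Probe sequences were not used here.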

Additional observations from a re-analysis of the deposited data

Results flagged for a closer look

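Of 26 tests for a single array far from the other 4, over spots and genes with several spots, 7 passed Dixon's criterion. Chance passes about 1 in 20 where no array is shifted as a whole. The share of all features that pass was not counted, so the 7 are not shown to exceed what other bright spots give. All 7 concern cocaine-in-Cy5 replicate 1, and the spots and genes overlap. As deposited that array stood at -2.12 for the bright Ywhab spot, at -1.77 for the dimmer Ywhae spot and at -1.93 for the second Ywhaq spot. The gene values of Ywhab (-1.46) and Ywhaz (-1.26) were flagged likewise. With the brightness trend removed it still stood apart for the 2 brighter Ywhaq spots, at -0.72 and -0.68. The same array had the lowest ratio for 93.9% of gene spots above background. Its deposited median over them was -1.57, against -0.68 to 0.15 on the other arrays. The part of this array in the members' values beyond the trend was not tested.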

How the results depend on the processing

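No member gene was called under any setting run. Of the 11 spots, 3 were called when Cy5 over Cy3 was read on every array, where 78.4% of all features were called. With the cocaine-in-Cy5 arrays alone 2 were called, where 76.8% of all features were. The first setting takes as treatment what the main fit takes as dye, and the second cannot tell dye from treatment. Those 3 were the dim spots of Ywhaq (-0.79), Ywhaz (-0.54) and Ywhab (-0.32), and those 2 of Ywhaq (-0.78) and Ywhab (-0.49). Sign changes among uncalled values were as follows, and their cause was not tested unless stated. Trend removal over all spots gave 0.27 for the bright Ywhab spot, 0.097 for the dimmer Ywhae spot, 0.098 for Ywhag, 0.021 for the second Ywhaq spot, and gene values of 0.037 (Ywhab), 0.0048 (Ywhaq) and 0.085 (Ywhaz). Fitted over spots above background it gave 0.31 (Ywhab), 0.15 (Ywhag), 0.035 (Ywhaq) and 0.0019 (Ywhaz), for spot and gene alike. With B4coc and B4biscoc as 1 replicate as well, a combination chosen after seeing the data, the spots gave 0.26 (Ywhab), 0.10 (Ywhae), 0.059 (Ywhag), 0.0086 and 0.055 (Ywhaq), and the genes 0.049 (Ywhab), 0.024 (Ywhaq) and 0.065 (Ywhaz). The Cy5 over Cy3 reading gave 0.19 for the brighter Ywhae spot and 0.029 for the brighter Ywhaz spot, and with the trend removed 0.29 (dim Ywhab spot), 0.40 (brighter Ywhae spot), -0.19 (cDNA-clone Ywhaq spot), -0.21 and 0.081 (dimmer and brighter Ywhaz spot) and 0.14 (Ywhae gene), none called. Array weights gave 0.25 (bright Ywhab spot), 0.17 (dimmer Ywhae spot), -0.017 (cDNA-clone Ywhaq spot) and 0.063 (Ywhab gene), quantile normalization 0.070 and 0.031 for the first 2 of these, no dye term -0.15 (cDNA-clone Ywhaq spot) and -0.093 (dimmer Ywhaz spot), and the cocaine-in-Cy5 arrays alone -0.53 for the latter. Ywhah had a negative value in all 26 settings (-1.13 to -0.010), which all draw on the same 5 arrays. The value nearest 0, -0.010 ± 0.46 (SE), is that of the Cy5 over Cy3 reading, where the sign does not name the same side. As deposited in the main fit, 3463 of the 3471 genes with a spot above background were negative too.

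Leaving out 1 array moved the deposited ratios from -0.38 to 0.20 and the trend-removed ones from 0.13 to 0.39 for the bright Ywhab spot. The ranges were -0.23 to -0.088 and -0.25 to -0.11 for the dim Ywhab spot, -0.72 to -0.31 and -0.31 to -0.14 for the brighter Ywhae spot, -0.37 to 0.12 and -0.031 to 0.24 for the dimmer Ywhae spot, -0.63 to -0.11 and -0.029 to 0.23 for Ywhag, -0.77 to -0.12 and -0.10 to 0.12 for the brightest Ywhaq spot, -0.48 to 0.034 and -0.051 to 0.16 for the second, and -0.030 to 0.042 and -0.0081 to 0.031 for the cDNA clone's. For Ywhaz they were -0.66 to -0.26 and -0.11 to 0.021 (brighter spot) and -0.061 to 0.15 and 0.16 to 0.28 (dimmer). Gene values ranged from -0.28 to 0.054 and -0.041 to 0.14 (Ywhab), -0.50 to -0.096 and -0.14 to 0.026 (Ywhae), -0.42 to -0.029 and -0.043 to 0.091 (Ywhaq) and -0.35 to -0.058 and 0.046 to 0.13 (Ywhaz). No paired analysis was possible because replicate numbers follow accession order and so pair no arrays; the pairing of a cocaine-treated with a saline-treated mouse lies within each array's ratio, which every fit used. Dim spots, close to background, limit what Ywhae and the second spots can show.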
